A study of Mus musculus with 9 samples.

Results

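Ift122, Ift74, Ift46, Bbs1, Bbs2, Bbs7 and B9d1 are 7 genes of the machinery that builds and maintains cilia and flagella. They were followed on 2-colour arrays of juvenile testes with and without Spo11. Members were the genes whose symbol was the only one annotated to a probe, with probes of 1 gene averaged, which gave 9 probes for 7 of 7117 genes. Ift122 and Ift74 had 2 probes each and the other genes 1. The genes were picked by function and with earlier results of these arrays known, and all 7 lay past the threshold used at 15 days. Their 15-day ratios, and the differences between ages that use them, are therefore given as a description, with no test.

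Cilia and flagella grow at their tip, and intraflagellar transport carries building material there and back along microtubules. The IFT-B complex is tied to movement outwards with kinesin and the IFT-A complex to the return with dynein. The BBSome links membrane proteins to this traffic, and the transition zone gates the base of the organelle. In the testis the same machinery is best known for the sperm tail. Male mice that lack Bbs2 form sperm without flagella. Spo11 makes the DNA breaks that start meiotic recombination, and spermatocytes of mice without it arrest in meiosis.

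Each array compared whole-testis total RNA of 1 Spo11-/- sample with that of 1 wild-type sample, labelled with different dyes. There were 4 arrays of mice aged 15 days and 5 of mice aged 12 days. Mouse pairs came from 1 litter per the series' design text, which describes 4 experiments. The labels do not say whether any of the 5 arrays at 12 days had RNA in common, so p-values measure the spread between arrays, which may be partly technical. For strain, allele and number of mice per sample the sources used here give nothing. The 15-day arrays all had knockout RNA in Cy3. At 12 days replicates 1, 4 and 5 had it in Cy5, and replicates 2 and 3 in Cy3.

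The values are log ratios whose base is not stated; they were read as log2, on which every fold given rests. Each array had a median of 0. An array had values for 11628 to 14724 of the 16128 probes, and the SD over probes was 0.31 to 0.47 at 15 days and 0.21 to 0.43 at 12 days. A ratio gives no level, so the labelled tissue could not be checked by the abundance of its markers, and no probe was annotated to Spo11. In whole testis, fewer cells of a type and less RNA per cell cannot be told apart. Which way the ratios run is unsettled. The 15-day arrays correlated below 0, across probes, with 12-day replicates 2 and 3, which have the same dye orientation. Pearson's r was from -0.38 to -0.33 with replicate 3 and from -0.25 to -0.11 with replicate 2. With 12-day replicates 1, 4 and 5, of the opposite orientation, r ran from -0.23 to 0.03, so these arrays showed no clear correlation above 0 either. The labels give the dye of each sample but not the order of the ratio. If the 15-day ratios are Cy5 over Cy3, an assumption called the label reading below, a value below 0 means more RNA in the knockout. Read as knockout over wild type, it means less. Ratios of both ages are printed with the deposited sign. The coefficient at 12 days takes the ratios as Cy5 over Cy3 and then means knockout over wild type.

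The promoters are shown because genes of this machinery are known targets of RFX factors, which bind the X-box. The letters GTTGCC, an arm of the X-box, were searched on both strands (GGCAAC on the other) in windows of 300 bases, from 250 before to 50 after the start of the gene, taken from RefSeq on GRCm38.p6. A window was at hand for 6 of the 7 genes, all but Ift122, and 3 of them held the motif once. Among the other cilium genes on the array, 12 of 22 windows held it, against 12.51% of all 32851 windows. A match describes the letters only and is no binding site. The 3 windows are printed 5′ to 3′ on the gene's strand, with the motif in capitals. That of B9d1 is chr11:61504894-61505193 (plus strand), that of Bbs7 chr3:36613340-36613639 (minus strand) and that of Bbs1 chr19:4906578-4906877 (minus strand).
B9d1: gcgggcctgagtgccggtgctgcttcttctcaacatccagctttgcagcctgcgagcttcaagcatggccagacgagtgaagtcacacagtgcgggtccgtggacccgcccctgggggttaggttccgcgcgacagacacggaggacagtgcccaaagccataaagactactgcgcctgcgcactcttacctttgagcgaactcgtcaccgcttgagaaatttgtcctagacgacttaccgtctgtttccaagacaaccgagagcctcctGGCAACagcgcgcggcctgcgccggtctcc
Bbs7: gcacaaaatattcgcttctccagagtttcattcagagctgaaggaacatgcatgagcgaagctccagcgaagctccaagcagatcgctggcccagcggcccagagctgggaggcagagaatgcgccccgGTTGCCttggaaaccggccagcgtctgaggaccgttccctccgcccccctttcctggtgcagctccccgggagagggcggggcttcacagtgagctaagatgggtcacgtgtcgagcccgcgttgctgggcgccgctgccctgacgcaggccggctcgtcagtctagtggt
Bbs1: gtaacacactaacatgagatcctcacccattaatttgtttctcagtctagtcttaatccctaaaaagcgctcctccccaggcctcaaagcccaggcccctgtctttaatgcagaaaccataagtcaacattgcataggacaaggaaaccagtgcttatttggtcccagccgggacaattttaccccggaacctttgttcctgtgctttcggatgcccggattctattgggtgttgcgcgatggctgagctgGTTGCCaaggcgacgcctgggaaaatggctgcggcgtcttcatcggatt

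Counted from the first base of the gene as 1, the motif lay at 21 to 26 in B9d1 on the opposite strand. It lay at 2 to 7 in Bbs1 and from -121 to -116 in Bbs7, both on the gene's strand. The windows of Ift74, Ift46 and Bbs2 held no such letters. The motif was thus present in B9d1, which had the lowest 15-day ratio of the 7 genes, and in Bbs1, the only one of them with 15-day ratios above 0.

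The 15-day comparison asks which transcripts differ between testes without Spo11 and wild-type testes. Of the 7 genes, 6 lay below 0 on all 4 arrays and Bbs1 lay above 0 on all 4. Among all 6958 genes tested, 7.20% were called below 0 and 4.04% above 0 by limma, a linear model that shares information on spread between features (adjusted p under 0.05). These counts of the 7 genes were fixed by their choice, and nothing is read from them.

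Ift122 encodes a core subunit of IFT-A, the complex tied to return traffic, which also admits some membrane proteins to the cilium. Its ratios at 15 days were -0.645, -0.86, -0.895 and -0.705 on replicates 1 to 4, with a mean of -0.78 ± 0.12 (SD, n = 4), 1.71-fold away from equal. The 4 arrays lay close together. The probes of Ift122 had 15-day means of -0.74 and -0.81.

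Ift74 encodes an IFT-B subunit whose human protein binds tubulin together with that of Ift81. Its 15-day ratios were -0.44, -0.78, -0.535 and -0.23, with a mean of -0.50 ± 0.23 (SD, n = 4), 1.41-fold away from equal. Its probes differed. The first had -0.71, -1.16, -0.81 and -0.48, the second -0.17, -0.40, -0.26 and 0.02, and the means were -0.79 and -0.20. The 4 values of the first probe all lay below those of the second, and the second had no value at 12 days. Values of Ift74 that set the ages side by side therefore rest on 2 probes at 15 days and 1 probe at 12 days.

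Ift46 encodes another IFT-B subunit, which in the alga Chlamydomonas is needed to carry outer dynein arms into the flagellum. Its ratios were -0.17, -0.30, -0.82 and -0.61, with a mean of -0.48 ± 0.30 (SD, n = 4), 1.39-fold away from equal. Replicates 1 and 2 lay nearer 0 than replicates 3 and 4. Of the 6 genes below 0, Ift46 had its 15-day mean nearest 0. The 100 nearest probes on each side in probe order had medians of -0.24, -0.13, -0.16 and -0.13 on these arrays, and with them subtracted the mean of Ift46 was -0.31.

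Bbs2 and Bbs7 encode BBSome subunits that bind each other early in the assembly of the complex. Bbs2 had ratios of -0.53, -0.77, -0.71 and -0.30 at 15 days, with a mean of -0.58 ± 0.21 (SD, n = 4), 1.49-fold away from equal. Bbs7 had -0.51, -0.52, -1.16 and -0.64, with a mean of -0.71 ± 0.31 (SD, n = 4), 1.63-fold away from equal. Replicate 3 was the lowest array for Bbs7, and its other 3 values lay close together.

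Bbs1 encodes the BBSome subunit that binds the small GTPase Arl6, which recruits the complex to membranes. Its ratios were 0.42, 0.64, 0.44 and 0.24 at 15 days, with a mean of 0.44 ± 0.16 (SD, n = 4), 1.35-fold away from equal. Every value was above 0, whereas every 15-day value of Bbs2 and Bbs7 was below 0. The 100 nearest probes on each side of the Bbs1 probe, in the array's probe order, had medians of 0.11, 0.28, 0.25 and 0.25 on the same arrays. With these subtracted the mean of Bbs1 was 0.21, less than the value as deposited. Whether probe order follows position on the slide was not checked, and the part of nearby probes in the ratio was not tested further.

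B9d1 encodes a B9-domain protein of the transition zone, where it acts with Mks1 and B9d2. It had the lowest 15-day ratios of the 7 genes, at -1.45, -1.56, -1.46 and -1.20, with a mean of -1.42 ± 0.15 (SD, n = 4), 2.67-fold away from equal. All 4 values lay below every 15-day value of the other 6 genes. On each array B9d1 stood within the lowest 0.3% of genes, and its mean had rank 16 from the lowest of 6958. In the same order Ift122 had rank 85, Bbs7 105, Bbs2 186, Ift74 290 and Ift46 325, and Bbs1 had rank 295 from the highest. In the order of the 15-day means, B9d1 and Ift122 were separated beyond their SDs, while each neighbouring pair from Ift122 through Bbs7, Bbs2 and Ift74 to Ift46 differed by less than 1 SD.

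**Figure D1:**
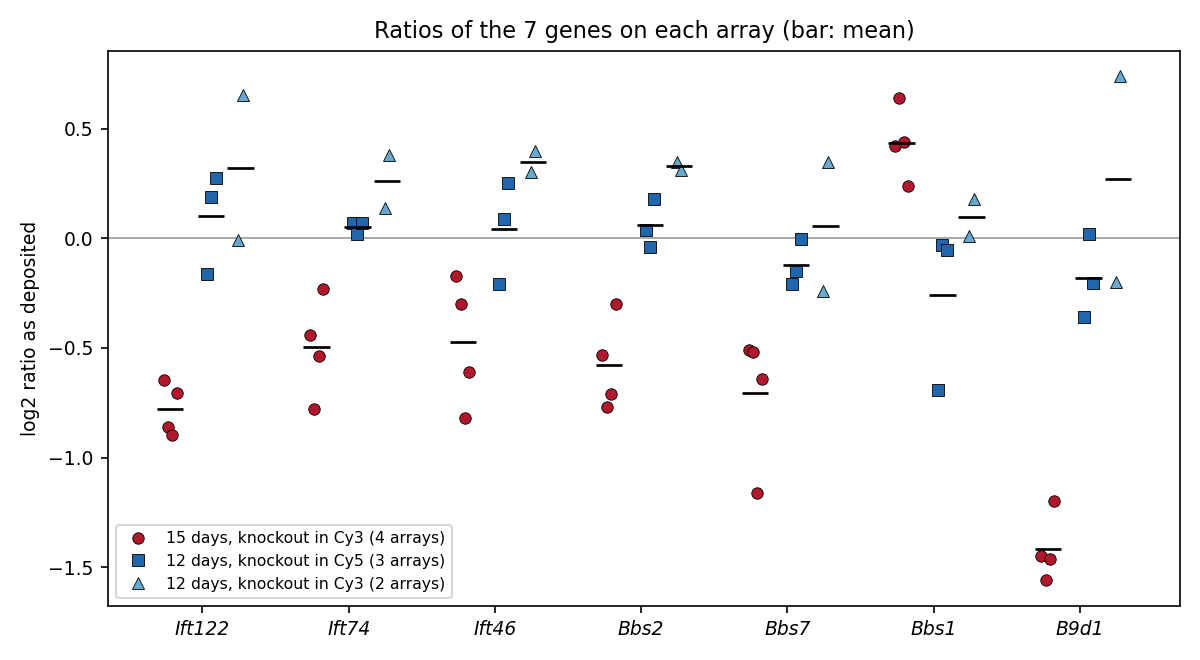
Log2 ratios as deposited (y axis) of the 7 genes (x axis) on 4 arrays at 15 days (circles) and 5 at 12 days, with knockout in Cy5 (squares) or Cy3 (triangles); bars are means. B9d1 lies from -1.56 to -1.20 at 15 days, Bbs1 alone lies above 0 there, and the 12-day values of the 7 genes spread from -0.69 to 0.74.

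With any 1 of the 4 arrays at 15 days left out, the mean ran from -0.82 to -0.74 for Ift122, from -0.58 to -0.36 for Ift46 and from -1.49 to -1.37 for B9d1. As these 4 arrays share 1 dye orientation, dye bias of a gene and a difference between genotypes cannot be told apart within them. With a dye term estimated from the 12-day arrays, the 15-day values in the label reading ran from -1.46 (B9d1) to -0.65 (Ift74) for the 6 genes below 0, and Bbs1 lay at 0.52. With the 15-day sign turned in that fit, they ran from -1.37 (B9d1) to -0.28 (Ift46), and Bbs1 lay at 0.35.

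Other cilium genes listed by function gave a count that does not include the 7 genes, although this list too was written with earlier results known. It held further subunits of the complexes, their motors, BBSome assembly factors and transcription regulators. Of 69 such genes, 24 were measured on the array, 4 of them regulators. Of these, 6 were called below 0 at 15 days (25.0%, against 7.20% of all genes) and 1 above 0 (4.17%, against 4.04%). Their median 15-day ratio was -0.14, against -0.02 over all genes. The count of 7 called fell to 4, 2, 1 and 4 without replicates 1, 2, 3 and 4.

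In IFT-A, Wdr35 had 15-day ratios of -0.81, -1.07, -1.125 and -0.85, with a mean of -0.96 (SE 0.11, limma adjusted p = 0.0019). Wdr19, another IFT-A subunit gene, lay at -0.55 (SE 0.12, limma adjusted p = 0.025). Ttc21b and Tulp3 did not pass. Of the 4 IFT-A genes measured beside Ift122, 2 were thus called below 0, against 7.20% of all genes, and none above.

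In IFT-B, Traf3ip1, whose protein binds microtubules, lay at -0.49 (limma adjusted p = 0.030). Ift20, whose protein also works at the Golgi, lay at -0.45 (limma adjusted p = 0.032). Of the 7 IFT-B genes measured beside Ift74 and Ift46, 2 were called below 0 (28.6%, against 7.20% of all genes) and none above. Ift88, Ift27, Cluap1, Ift81 and Ift52 did not pass, and the last of these had a mean of 0.02. Ift81, the partner of Ift74, had a mean of -0.08.

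Among the motors, the kinesin gene Kif3b lay just short of the threshold at -0.39 (limma adjusted p = 0.056). Tctex1d2, a light chain gene of the dynein of return traffic, was called above 0, at 0.58 (limma adjusted p = 0.014). Lztfl1, whose protein regulates BBSome traffic, lay at -0.64 (limma adjusted p = 0.032). Bbs4, the only other BBSome subunit gene measured, had a mean of 0.31 that did not pass (limma adjusted p = 0.089).

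In the transition zone, Iqcb1 was called below 0, at -0.40 (limma adjusted p = 0.036), while Tmem231 and Tctn3 had means of 0.04 and 0.08 that did not pass. No other gene among the 31 had a mean as low as that of B9d1. The transcription factor genes Rfx1, Rfx2, Rfx3 and Mybl1 were not called, and Rfx1 and Rfx2 had means of 0.28 and 0.26.

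**Figure D2:**
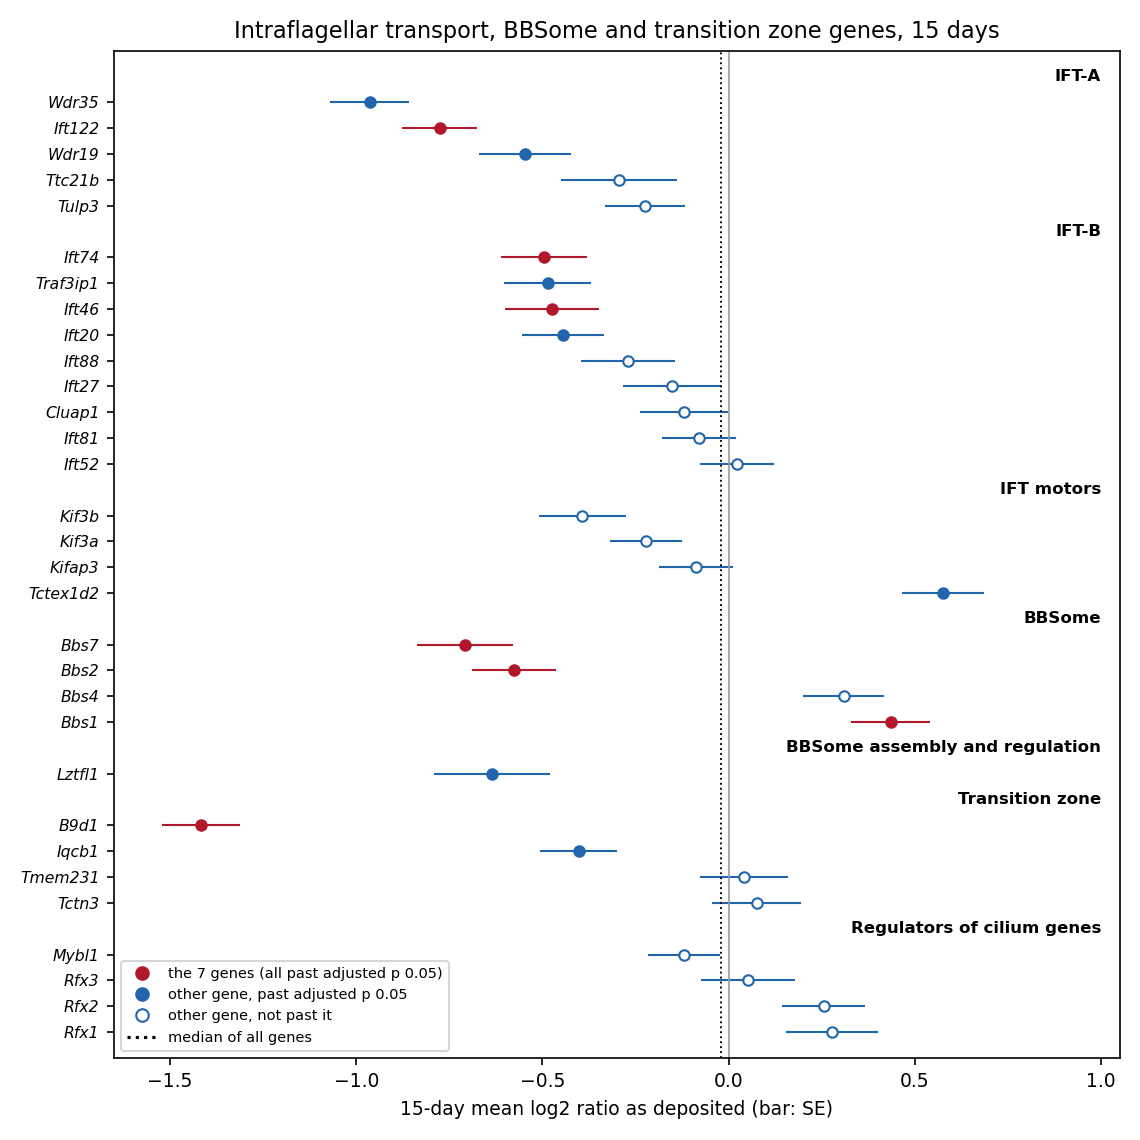
Mean 15-day log2 ratio as deposited (x axis, bar SE, n = 4 arrays) of 31 genes grouped by complex (y axis); filled points passed an adjusted p of 0.05, red points are the 7 genes, and the dotted line is the median of all genes (-0.02). Wdr35 (-0.96) is the lowest of the other genes, B9d1 is the farthest left at -1.42, and Tctex1d2 (0.58) and Bbs1 (0.44) are the 2 called genes on the right.

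Some marker genes of testis cell types were called on the same arrays, where 7.20% of all genes were called below and 4.04% above 0. Of 3 pachytene spermatocyte markers measured of 13 listed, 2 were called below 0 at 15 days, Slc2a3 at -2.16 and Ccnb1ip1 at -0.58. Of 7 spermatogonium markers measured, 3 were called above 0 (Etv5, Uchl1 and Ccnd1), and the median of the 7 was 0.36. Of 10 spermatid markers listed, only Txndc2 was measured, and it was called above 0 from 3 values, at 0.81. A single marker gives no account of a cell type. None of 8 Sertoli cell markers and 1 of 5 Leydig cell markers (Nr5a1, 0.43) was called. None of 4 markers of multiciliated epithelium was called, and their median was -0.07. The part of cell composition in the ratios of the 7 genes was not tested.

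At 12 days none of the 7 genes was called, and 0% of all 6237 genes were. The knockout coefficient of limma ranged from -0.23 (B9d1) to -0.09 (Bbs7), with an adjusted p of 1.0 for each gene and unadjusted p from 0.14 to 0.45. Over all 10075 features tested, limma called 0, and 269 had an unadjusted p under 0.05.

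For Ift122 the 12-day ratios were -0.165, 0.19 and 0.2755 with knockout in Cy5 and -0.01 and 0.655 with knockout in Cy3, a coefficient of -0.11 (SE 0.13). For B9d1 they were -0.36, 0.02 and -0.203 with knockout in Cy5 and -0.20 and 0.74 with knockout in Cy3, a coefficient of -0.23 (SE 0.15). In both genes the orientations overlapped. Bbs7 overlapped too, with -0.21, -0.15 and -0.004 with knockout in Cy5 and -0.24 and 0.35 with knockout in Cy3 (coefficient -0.09, SE 0.11).

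In Ift74, Ift46, Bbs1 and Bbs2 the 3 values with knockout in Cy5 all lay below the 2 with knockout in Cy3, a pattern that 9.95% of 5616 genes showed. Ift74 had 0.07, 0.02 and 0.069 with knockout in Cy5, and 0.14 and 0.38 with knockout in Cy3 (coefficient -0.10, SE 0.08). Ift46 had -0.21, 0.09 and 0.253 with knockout in Cy5, and 0.30 and 0.40 with knockout in Cy3 (coefficient -0.15, SE 0.10). None of these gaps passed the test.

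Bbs2 had 0.04, -0.04 and 0.178 with knockout in Cy5, and 0.35 and 0.31 with knockout in Cy3 (coefficient -0.14, SE 0.08). Bbs1 had -0.69, -0.03 and -0.053 with knockout in Cy5, and 0.01 and 0.18 with knockout in Cy3 (coefficient -0.18, SE 0.12). Replicate 1 stood apart for Bbs1. Replicate 3 was the array on which all 7 genes lay above 0, from 0.18 for Bbs1 to 0.74 for B9d1. On that array the 7 genes stood at percentiles 82.4 to 99.4 of all genes, and the marker Slc2a3 had a ratio of 2.36. Without replicate 3, the coefficients of Ift122, Bbs7 and B9d1 turned to 0.06, 0.06 and 0.01. Of the 21 other cilium genes tested at 12 days, 0 were called by limma, 0 had an unadjusted p under 0.05, and 11 had a coefficient below 0.

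Set against the 12-day values as deposited, the 15-day values of Ift122, Ift74, Bbs2, Bbs7 and B9d1 lay below all 5 of them, as in 9.87% of 5381 genes. Bbs1 lay above all 5, as in 4.92% of these genes. Ift46 overlapped: its 15-day value of -0.17 on replicate 1 lay above -0.21 on 12-day replicate 1. These patterns rest on the 15-day values that chose the genes. The 5 values at 12 days also mix both dye orientations, whereas the 15-day arrays share 1. The patterns are therefore no measure of a difference in the knockout effect between ages.

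The age difference is the knockout effect at 15 days minus that at 12 days, and its sign depends on how the 15-day arrays are read. In this fit the shared dye term leaves the 15-day arrays set against 12-day replicates 2 and 3 alone. With every ratio read as Cy5 over Cy3, it was 1.69 for B9d1 (SE 0.24), 1.10 for Ift122 (SE 0.21), 0.91 for Bbs2 (SE 0.17), 0.83 for Ift46 (SE 0.21), 0.76 for both Ift74 and Bbs7 and -0.34 for Bbs1. In this reading 2.28% of 6144 genes were called. The values of the 7 genes are a description here too, since the 15-day ratios enter them. With the 15-day sign turned, it was -1.15 for B9d1 (SE 0.24), -0.65 for Bbs7 (SE 0.23), -0.45 for Ift122, -0.25 for Bbs2, -0.24 for Ift74, -0.13 for Ift46 and 0.53 for Bbs1. In that reading 0% of 6144 genes were called. All 7 genes changed sign between the readings. With the neighbouring probes subtracted, the difference of Bbs1 in the label reading was 0.005.

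**Figure D3:**
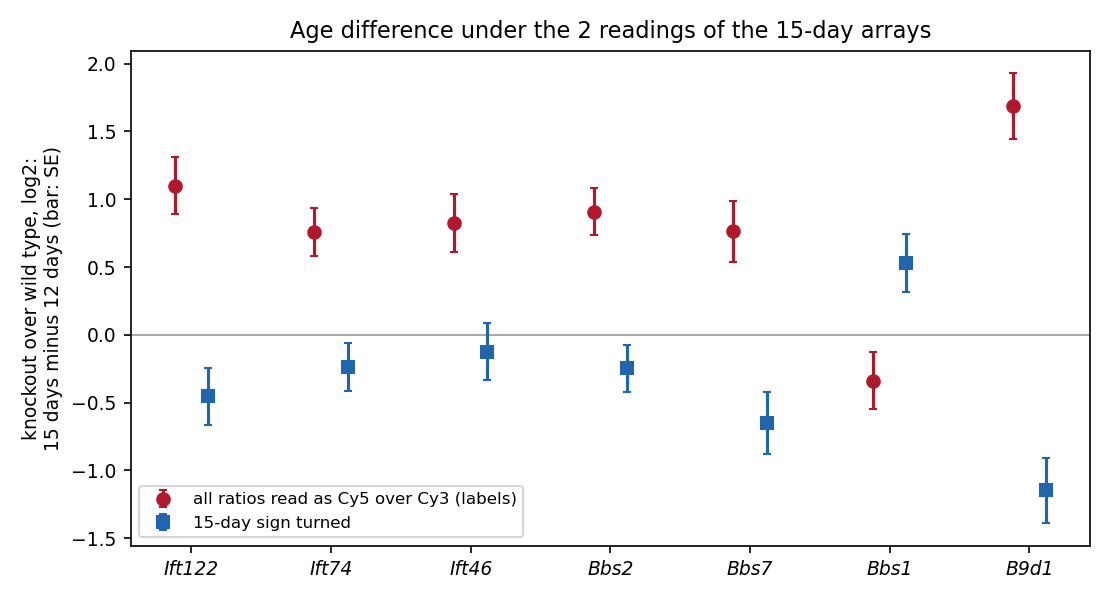
Knockout effect at 15 days minus that at 12 days (y axis, log2, bar SE from limma over 9 arrays) for the 7 genes (x axis), with all ratios read as Cy5 over Cy3 (circles) and with the 15-day sign turned (squares). Each gene changes sign between the readings, B9d1 between 1.69 and -1.15.

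The size of the B9d1 difference leaned on single 12-day arrays. Under the label reading it was 2.16 without 12-day replicate 2 and 1.22 without 12-day replicate 3. It was 1.67 without 15-day replicate 3.

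Over the 9 arrays the mean of the 7 genes as deposited was -0.475, -0.59, -0.73 and -0.49 at 15 days, and -0.22, 0.05, 0.43, 0.01 and 0.07 at 12 days. Pearson's r of a gene with the mean of the other 6 was 0.89 to 0.98 for the 6 genes other than Bbs1 and -0.56 for Bbs1, across 9 arrays that fall into 2 sets by age. These values describe likeness and carry no test. Bbs1 departed from the others at 15 days by its sign, whereas on 12-day replicate 3 it had the same sign as they did.

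Profiles were ranked by Pearson's r with the mean of the 7 genes, with the listed cilium genes left out. Among 2670 other genes with a value on every array and at least median spread, Cep70 and Calm2 came first (r = 0.99 each). Pdia5, Ccdc89 and Wdr62 followed (0.98 each). Cep70 and Wdr62 encode centrosome proteins, Calm2 calmodulin and Pdia5 a disulfide isomerase. Cep70 had 15-day ratios of -0.57, -0.83, -1.11 and -0.63, and 12-day ratios of -0.44, 0.14, 0.46, -0.03 and 0.07. All 5 genes lay below 0 on all 4 arrays at 15 days, as did 1546 of 6958 genes tested, and above 0 on 12-day replicate 3. As the 5 genes were picked for likeness over these same arrays, nothing is read from these signs.

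**Figure D4:**
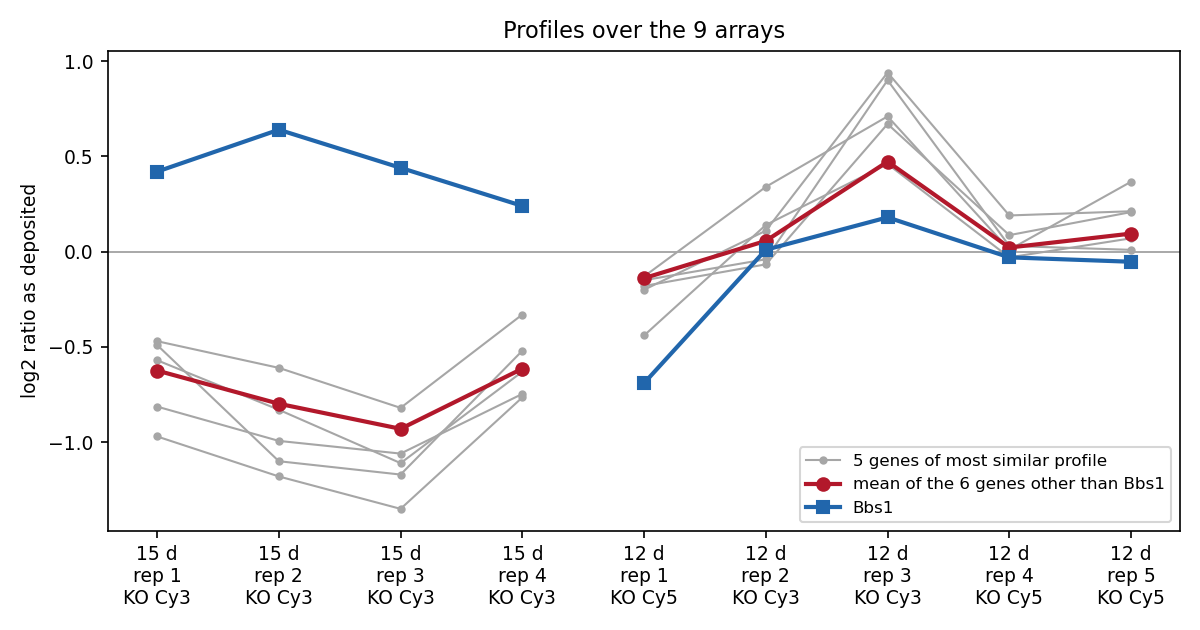
Log2 ratio as deposited (y axis) on each of the 9 arrays (x axis, with age, replicate and dye of the knockout). Red is the mean of the 6 genes other than Bbs1, blue is Bbs1, and grey the 5 genes of most similar profile outside the cilium list. Lines only join the points of 1 profile. The red points lie from -0.93 to -0.61 at 15 days and reach 0.47 on 12-day replicate 3, while Bbs1 lies from 0.24 to 0.64 at 15 days.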

How the data were processed

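Each of 9 arrays held whole-testis RNA of knockout and wild-type mice. Per the series' design text, the authors used a GenePix 4000A scanner and GenePix 3.0 with its flags, then median centring and SAM. The deposited values are log ratios (median 0 on every array, values on both sides), taken as log2; log base, direction and background correction are not stated there. No scanner intensities were used, so how far spots stood above background is unknown, and precision is limited by the number of arrays.

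Of 16128 probes, 9604 had 1 annotated gene, 213 several and 6311 none. The annotation is old. For 98.9% of the probes with 1 gene the Entrez ID matched a RefSeq gene, whose symbol was used. Probes of a gene were averaged, and unannotated probes stayed as features. Log ratios were tested two-sided with limma 3.58.1 (R 4.3.3; lmFit, then eBayes), and p adjusted by Benjamini-Hochberg over all features was called under 0.05. The 15-day fit set the mean against 0 with at least 3 values. The 12-day fit held a knockout and a dye term with at least 4 values in both orientations. For the age difference 1 model held all 9 arrays and a common dye term. The fits were also run on simulated data with independent normal noise. These held no dye bias, shared RNA or effect of neighbouring probes, so they say nothing on those.

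The 7 genes and all lists were chosen with earlier results of these data known. Named beside them are the other listed genes that passed at 15 days, and the 4 highest and 4 lowest of that list. Also named are the 5 genes of most similar profile outside the cilium list, and cell type markers. Other listed genes are named to account for their complex. Alternatives covered missing values, scaling, single probes, thresholds, dye terms, the 15-day sign and each array left out. Subtraction of the median of the 100 nearest probes on each side, in probe order, was added after seeing the data. The labels gave no shared replicate numbers, so no array was paired with another.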

Additional observations from a re-analysis of the deposited data

Results flagged for a closer look

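With all ratios turned to knockout over wild type, the 12-day ratio of Bbs1 on replicate 1, -0.69, stood apart from the other 4 arrays: the gap to its neighbour was 0.75 of the range of the 5 values, above Dixon's critical value of 0.71. It was the 1 such value among 14 groups examined, and chance flags about 1 in 20. With all ratios read as Cy5 over Cy3, the limma contrast between ages lay past the threshold for B9d1 (1.69), Ift122 (1.10) and Bbs2 (0.91). These differences use the 15-day values with which the genes were chosen. A place past the threshold is therefore a description and no test of an age effect. None of the 3 was called when the 15-day sign was turned. With 1 array left out, B9d1 fell short of the threshold without 15-day replicate 3 (1.67) and without 12-day replicate 3 (1.22). Ift122 fell short without 15-day replicate 1, 2 or 3 and without 12-day replicate 3 or 4 (0.77 to 1.14). Bbs2 fell short without 15-day replicate 1, 2 or 3 and without 12-day replicate 2, 3 or 4 (0.84 to 0.93).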

How the results depend on the processing

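At 15 days 1515 features were called, 860 above and 655 below 0; quantile normalization gave 712 above and 858 below. The count was 242 at an adjusted p under 0.01 and 1.5-fold, and with a dye term fitted over both ages 763 with the label reading and 17 with the 15-day sign turned. It was 357 to 1021 with 1 array left out, lowest without 15-day replicate 3. The other cilium genes called, 7 as reported, numbered 1, 3 and 0 under the same 3 settings, and 1 to 4 with 1 array left out. They numbered 8 with scale normalization, 8 with quantile normalization and 10 with neighbouring probes subtracted. Each fit with a dye term tested 21 of these genes and 9851 features, against 24 and 12198 in the main fit. For the age difference 231 features were called, against 0 with the 15-day sign turned (650 at an unadjusted p under 0.05). The count was 554 with scale normalization, 799 with quantile normalization, 495 with neighbouring probes subtracted and 10 to 465 with 1 array left out. At 12 days the count was 0 under every setting run.

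The 7 genes were chosen with their 15-day values known, and their place past that threshold was often lost. It was lost by Ift46 (-0.31) and Bbs1 (0.21) with neighbouring probes subtracted, and by the second Ift74 probe alone (-0.20). Bbs1 (0.52) lost it with the dye term and the label reading. With the dye term and the 15-day sign turned, all but B9d1 lost it. With 1 array left out, it was lost by Ift74 and Bbs1 (without replicate 1, 2 or 3), Ift46 (2, 3 or 4) and Bbs2 (2 or 3). The 12-day coefficients not turned by the dyes were 0.19 for Ift122, 0.14 for Ift74, and 0.17 for both Ift46 and Bbs2. With values turned to knockout over wild type and 1 array left out, the coefficients ranged from -0.28 to 0.0551 for Ift122, from -0.24 to 0.0593 for Bbs7 and from -0.46 to 0.0095 for B9d1, each highest without replicate 3. Turning the 15-day sign reversed the age difference of all 7 genes, among them the 3 past the threshold in the label reading, Ift122 (-0.45), Bbs2 (-0.25) and B9d1 (-1.15). The cause of these changes was not tested beyond the settings themselves. Each ratio already pairs a knockout with a wild-type sample. No paired analysis was possible between the ages because the labels share no replicate numbers.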
